A study of Homo sapiens with 11 samples.

Results

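The genes described here are 10 regulators of the BCL2 family of apoptosis: BCL2, BCL2L1, BCL2L2, MCL1, BAX, BAK1, BCL2L11, BID, BBC3 and PMAIP1. They were taken as all probes whose gene name in the scanner files was one of these symbols, which gave 23 of 41000 probes and 10 of 30484 gene names. The study asked whether an siRNA against the promoter of E-cadherin and microRNAs with the same seed change gene expression alike in PC-3 cells, a human prostate cancer line. RNA was taken 24 h after transfection and hybridised to 11 one-colour arrays in 3 sets, and each set was 1 slide. In set 1, miR-372 (sample 4), miR-302a (sample 3) and dsEcad640 (sample 2) stood beside mock sample 1. In set 2, miR-373 (sample 7) and miR-520f (sample 6) stood beside mock sample 8. In set 3, a second array of miR-372 (sample 10) and miR-520c (sample 12) stood beside mock samples 9 and 11. Mock cells received no duplex. All groups were PC-3 cells at the same time point, and each array carried a mix of RNA from 4 transfections. A duplex other than miR-372 therefore had 1 array, and whether the mock arrays came from separate mixes was not stated in the sources used here, so that p-values measure the spread between these arrays, which may be partly technical. One title gives miR-530f for sample 6, while its other labels give miR-520f.

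BCL2 family proteins decide whether the outer membrane of the mitochondrion is opened, the step that releases cytochrome c and starts the caspases. BAX and BAK1 are the effectors that form the pores. BCL2, BCL2L1 (BCL-X), BCL2L2 (BCL-W) and MCL1 hold them in check, and the BH3-only proteins BCL2L11 (BIM), BID, BBC3 (PUMA) and PMAIP1 (NOXA) relieve that check or act on the effectors directly. A microRNA represses transcripts mainly by pairing of its seed, bases 2 to 8 counted from the 5′ end, with sites in the 3′ untranslated region.

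The mature sequences of the transfected microRNAs are shown because the comparisons rest on the seed. They are the RefSeq sequences on GRCh38.p14, 5′ to 3′, with bases 2 to 8 in capitals.
miR-302a-3p: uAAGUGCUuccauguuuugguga
miR-372-3p: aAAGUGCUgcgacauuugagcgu
miR-373-3p: gAAGUGCUucgauuuuggggugu
miR-520c-3p: aAAGUGCUuccuuuuagagggu
miR-520f-3p: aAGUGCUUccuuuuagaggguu
The first 4 had the seed AAGUGCU, whereas miR-520f had AGUGCUU and carried AAGUGCU at bases 1 to 7. miR-302a lies on chromosome 4 from 112648186 to 112648208 on the minus strand. The others lie on the plus strand of chromosome 19, miR-520f from 53682213 to 53682234, miR-520c from 53707506 to 53707527, miR-372 from 53787931 to 53787953 and miR-373 from 53788748 to 53788770. The study gives dsEcad640 as sharing the AAGUGCU seed on its antisense strand. It is called a common-seed duplex here together with the first 4 microRNAs, which gives 5 duplexes on 6 arrays.

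A level below is the log2 processed signal of a probe minus the log2 of the 75th percentile of its array, and it is compared only between arrays and never between probes. Of the 23 probes, 21 had a signal well above background on 6 or more arrays and were tested. The other 2, A_23_P154426 and A_23_P309996, belong to BCL2L11. Between 54.3% and 72.7% of all probes were well above background on 10 arrays, and 88.1% were on miR-372 sample 4. Keratins KRT8, KRT18 and KRT19, VIM, PLAU and the epithelial gene TACSTD1, which PC-3 cells express, were well above background on all 11 arrays. Of the 13 tested probes for markers of PC-3 cells, 5 were higher under the common-seed duplexes, 3 for KRT18 and 2 for KRT8, and none was lower. Of the markers of other cell types, both probes of the leukocyte gene PTPRC were well above background on 1 array, miR-372 sample 4, whereas 1 probe each of CD3E, COL1A1, GFAP and PECAM1 was on all 11 arrays. None of the 5 tested probes for these markers passed the test, and the part of these differences in the results below was not tested.

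BAK1, one of the pore-forming effectors, was the only member with a probe that passed the adjusted test under the common-seed duplexes. The call was lost in 9 of 20 alternatives, and 4.19% of all probes passed. Its probe A_23_P145357 lies on chromosome 6 from 33648563 to 33648622 on the minus strand (hg18). The level was 0.98, 0.94, 1.26 and 0.72 on mock samples 1, 8, 9 and 11. It was 1.79 under dsEcad640, 1.88 under miR-302a, 1.59 and 1.88 on the miR-372 samples 4 and 10, 1.82 under miR-520c and 1.59 under miR-373. All common-seed arrays were thus above all mock arrays, and the groups did not overlap, a pattern that 3.27% of probes showed in this direction. No other member probe had groups without overlap in either direction, where 3.44% of probes were lower throughout. The group means were 1.76 ± 0.14 (SD, n = 6) under the common-seed duplexes and 0.97 ± 0.22 (SD, n = 4) in mock cells.

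With the set as a block, limma gave BAK1 a log2 fold change of 0.79 (standard error 0.12, 95% confidence interval 0.50 to 1.08, adjusted p = 0.0178), a 1.73-fold higher signal. Without the block, where 1.43% of all probes passed, BAK1 had 0.79 (adjusted p = 0.0203). BAK1 was the only one of the 21 member probes that passed an adjusted p of 0.05, or 4.76%, while 4.19% of all 27118 probes passed, 2.14% as higher and 2.05% as lower. The share of members called was therefore close to that of all probes. The difference was 0.78 in set 1, 0.65 in set 2 and 0.87 in set 3. In set 3, miR-372 sample 10 was above mock sample 9 by 0.63 and above mock sample 11 by 1.17, and miR-520c by 0.57 and 1.11. The direction held with either mock array.

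The size of the BAK1 difference was steadier than its call. Over 20 alternatives the log2 fold change ranged from 0.68 to 0.87 and the adjusted p from 0.00657 to 0.305, and the call was lost in 9 of them. The adjusted p was 0.139 without mock sample 1, 0.0597 without miR-373 sample 7 or without mock sample 8, which remove set 2 from the comparison, and 0.0569 without miR-372 sample 10. It was 0.305 after scaling to the median, 0.0645 without a filter on dim probes, and 0.199 with a mean per duplex. Sets 1 and 2 alone gave 0.197 and set 3 alone gave 0.296.

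**Figure D1:**
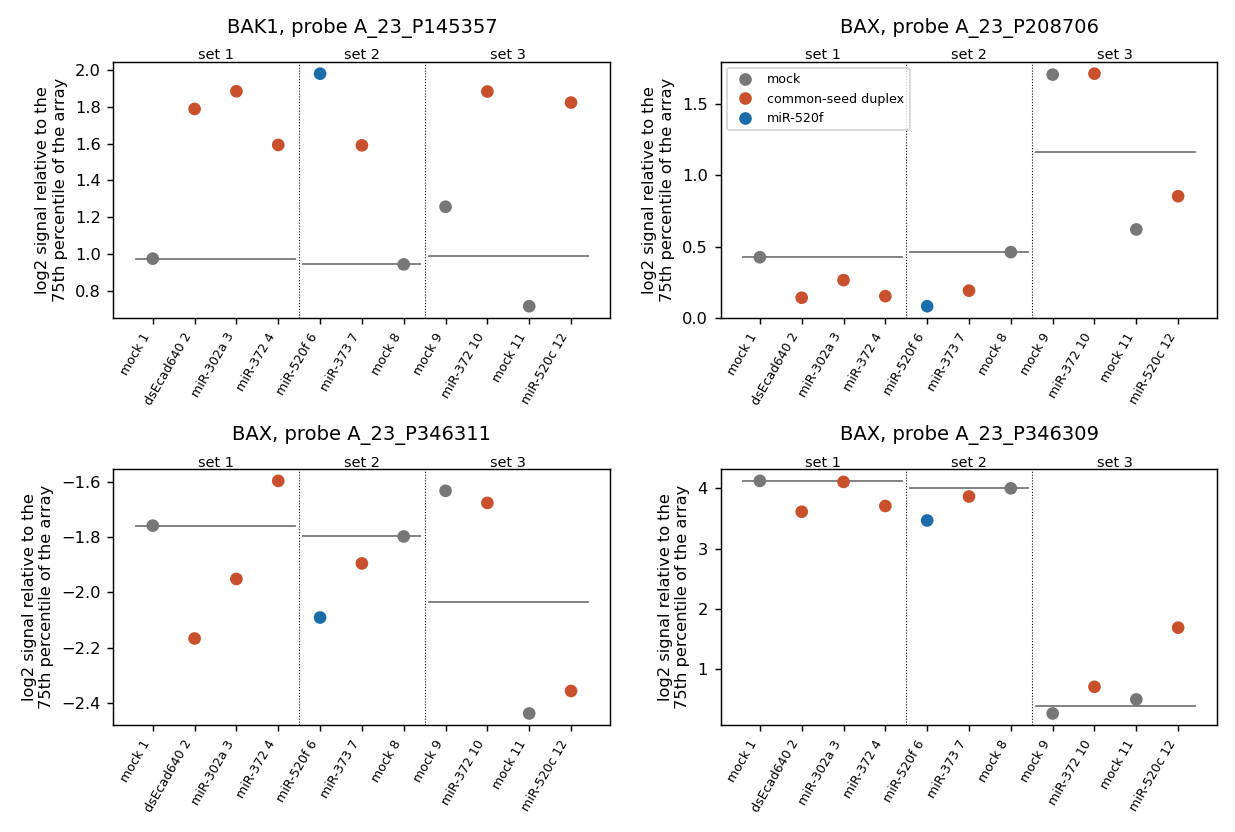
Level of the probe of BAK1 and of the 3 probes of BAX on each of the 11 arrays, as log2 signal over the array's 75th percentile; dotted lines part the sets and grey lines mark the mean of the mock arrays of a set. BAK1 lay at 1.59 or above on all common-seed arrays and at 1.26 or below on the mock arrays, whereas the groups of BAX overlapped on each of its probes.

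The 3 probes with the values most like those of BAK1, after each set was centred, were of BCR (r = 0.988), S100A16 (r = 0.982) and RNF182 (r = 0.976) over the 11 arrays. They were the highest of all tested probes with a gene symbol, and the arrays share sets and mock samples, so that r is a description. Their log2 fold changes were smaller than that of BAK1, 0.32 (adjusted p = 0.0678), 0.39 (adjusted p = 0.0426) and 0.36 (adjusted p = 0.0349).

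BAX, the other effector, had 3 probes on chromosome 19 of hg18, and none passed the test. The probe A_23_P208706, from 54156716 to 54156775, had a log2 fold change of -0.09 (95% confidence interval -0.66 to 0.49). Its level was 0.43, 0.46, 1.71 and 0.62 on mock samples 1, 8, 9 and 11 and from 0.14 to 1.71 on the common-seed arrays, so that mock sample 9 stood with miR-372 sample 10 of the same slide and away from the other mock arrays. The probe A_23_P346311, from 54150770 to 54150829, had a log2 fold change of -0.06 (-0.55 to 0.43). The probe A_23_P346309, from 54150541 to 54150600, had 0.23 (-0.40 to 0.86), with 1.31 under miR-520c against the mock arrays of its set and -0.51 under dsEcad640.

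**Figure D2:**
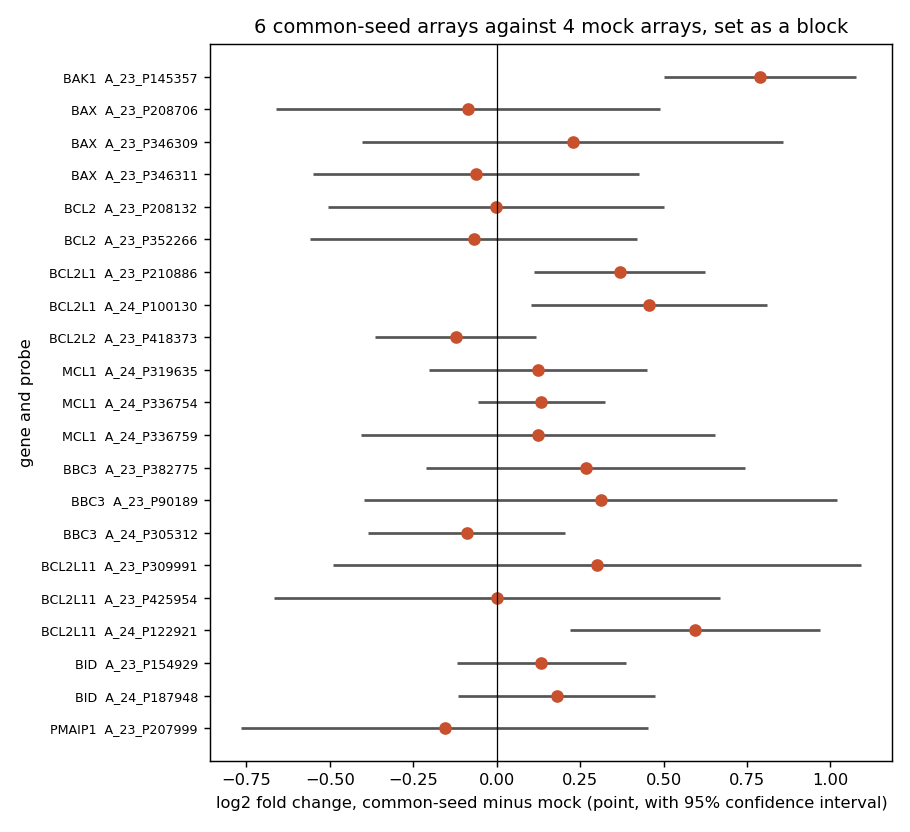
Log2 fold change of each of the 21 tested member probes between the 6 common-seed and the 4 mock arrays, with its 95% confidence interval from limma with the set as a block. The intervals of BAK1, of both BCL2L1 probes and of A_24_P122921 of BCL2L11 lie above 0, and only BAK1 passed after adjustment over all probes.

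BCL2L1, grouped here with the guardians, had both probes above the mock arrays of their set on 6 of 6 common-seed arrays. Neither passed after adjustment. BCL2L1 encodes BCL-XL, the form meant by guardian here, and, by splicing, the short BCL-XS, whose role was not examined. The probe A_23_P210886, at 29716985 to 29717044 on chromosome 20 of hg18, is assigned by the files to both transcripts. Its level was -0.23, -0.19, -0.82 and -1.18 on mock samples 1, 8, 9 and 11. It was 0.06, 0.14, 0.18, 0.07, -0.38 and -0.75 on dsEcad640, miR-302a, miR-372 (sample 4), miR-373, miR-372 (sample 10) and miR-520c, in that order. Each common-seed array was above the mean of the mock arrays of its set, while all arrays of set 3 were below the other sets. The log2 fold change was 0.37 (95% confidence interval 0.11 to 0.62, adjusted p = 0.106 from limma).

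The probe A_24_P100130, at 29773576 to 29773635, is listed with the short transcript alone, which does not show that it misses BCL-XL. Detection of BCL-XL was not tested for this probe. Its level was -2.80, -2.55, -3.93 and -3.91 on mock samples 1, 8, 9 and 11. Under dsEcad640, miR-302a and miR-372 in set 1 it was -2.49, -2.35 and -1.87, under miR-373 in set 2 it was -2.54, and under miR-372 and miR-520c in set 3 it was -3.38 and -3.27. The difference from the mock array was 0.93 on miR-372 sample 4 and 0.02 under miR-373. The log2 fold change was 0.46 (0.10 to 0.81, adjusted p = 0.135 from limma, 0.0447 with the table normalized by the authors). With the mean of both probes, which may pool different transcripts, the value for BCL2L1 was 0.41 (standard error 0.11, adjusted p = 0.0806 from limma). The set-centred values of its probes correlated by an r of 0.69 over 11 arrays.

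For BCL2, the founding guardian, the 2 probes had log2 fold changes near 0. A_23_P352266, at 58941703 to 58941762 on chromosome 18 of hg18, had -0.07 (-0.56 to 0.42), with levels from -3.17 to -2.13 on all common-seed and from -2.83 to -2.37 on the mock arrays. A_23_P208132, at 59136115 to 59136150, had 0.00 (-0.51 to 0.50), over differences from mock of -0.55 in set 1, -0.06 in set 2 and 0.44 in set 3. Neither passed under any duplex, and the second differed between slides, as described below. Their set-centred values ran against each other (r = -0.57 over 11 arrays). BCL2L2, on chromosome 14 from 22850500 to 22850559, had a log2 fold change of -0.12 (-0.36 to 0.12). Its level spanned 0.61 to 1.17 on the common-seed and 0.90 to 1.17 on the mock arrays, the narrowest spread of the guardians on the mock arrays, and miR-520c gave the lowest value.

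MCL1, a guardian with a short-lived protein, had 3 probes on chromosome 1 of hg18, and its log2 fold changes under the common-seed duplexes were 0.12, 0.13 and 0.12 for A_24_P319635, A_24_P336754 and A_24_P336759. None passed the test, and the confidence intervals were -0.20 to 0.45, -0.06 to 0.32 and -0.41 to 0.65. The files assign the first probe, at 148817362 to 148817421, to 1 of the RefSeq transcripts of MCL1 and the other 2, at 148813852 to 148813911 and 148814246 to 148814305, to 2 of them.

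miR-520f, whose seed is shifted by a base, gave the lowest level of 2 of these probes. The level of A_24_P336754 was 4.00 under miR-520f, 4.57 on mock sample 8 and 4.76 under miR-373 in the same set, and between 4.57 and 5.16 on all other arrays. The level of A_24_P336759 was -0.71 under miR-520f, 0.74 on mock sample 8 and 1.20 under miR-373, and between 0.10 and 1.21 on all other arrays. For A_24_P319635, miR-520f had -1.60 and mock sample 8 -1.57, within the range of the other arrays. Both probes that the files assign to 2 transcripts were thus low on the array of miR-520f, and the third was not.

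In the test of the difference between miR-520f and the common-seed duplexes, A_24_P336754 had a log2 difference of -0.73 (95% confidence interval -1.09 to -0.37, unadjusted p = 0.00166, adjusted p = 0.172 from limma) and A_24_P336759 had -1.73 (-2.75 to -0.72, unadjusted p = 0.00421, adjusted p = 0.262 from limma). A_24_P319635 had -0.23 (-0.85 to 0.39, adjusted p = 0.971 from limma). Of all 27070 probes 16 passed here, or 0.0591%, and no member did, so that these values are single-array differences that did not pass. At an unadjusted p under 0.05, 2 member probes and 7.41% of all probes differed. Over 11 alternatives A_24_P336754 ranged from -0.85 to -0.62 and A_24_P336759 from -1.83 to -1.54, with adjusted p-values from 0.0831 to 1.00 and from 0.136 to 0.519. BAK1 was 1.98 under miR-520f, above mock sample 8 by 1.04. The BAK1 difference between miR-520f and the common-seed duplexes was 0.32 with an interval of -0.23 to 0.87 (adjusted p = 0.929 from limma). The shifted seed has 1 array, so that the spread behind these intervals comes from the other groups.

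**Figure D3:**
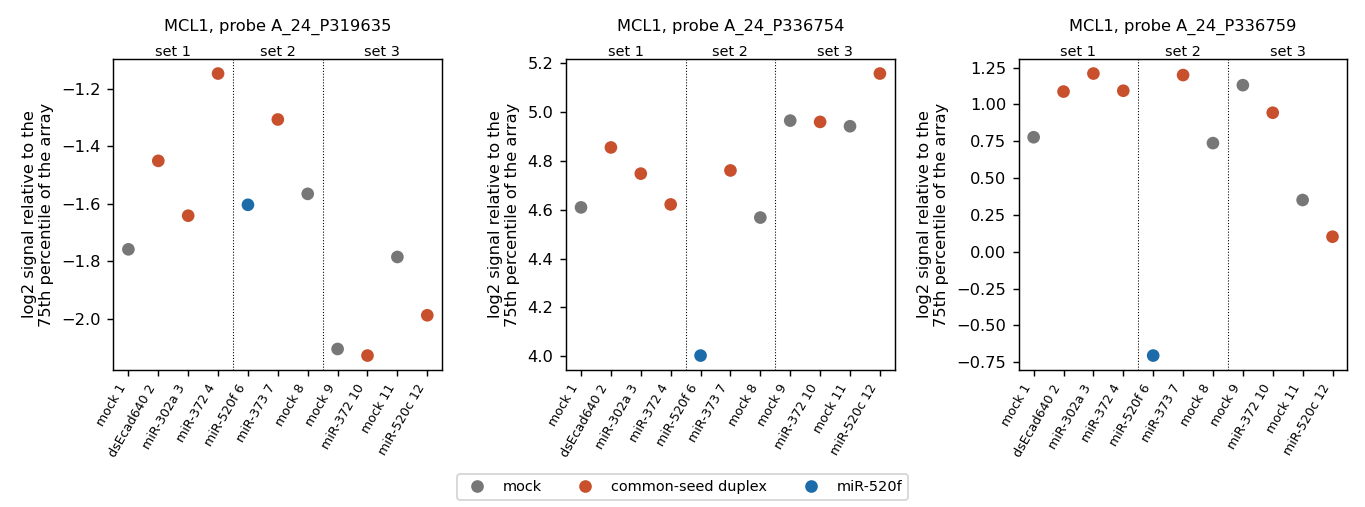
Level of the 3 probes of MCL1 on each of the 11 arrays, as log2 signal over the array's 75th percentile, with dotted lines between the sets. The array of miR-520f has the lowest value of A_24_P336754 (4.00) and of A_24_P336759 (-0.71), and for A_24_P319635 it lies at -1.60 beside mock sample 8 at -1.57.

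Of the BH3-only genes, BCL2L11 had a probe that was higher on every common-seed array than in the mock cells of its set, without passing the adjusted test. BCL2L11 encodes BIM, which binds all guardians. The probe A_24_P122921, at 111642363 to 111642422 on chromosome 2 of hg18, had levels of -0.85, -0.83, -0.31 and -0.06 on mock samples 1, 8, 9 and 11. It had -0.04 under dsEcad640, -0.43 under miR-302a, -0.44 and 0.23 on the miR-372 samples 4 and 10, 0.89 under miR-520c and -0.46 under miR-373. The groups overlapped across slides. Of all probes, 16.5% were above the mean of the mock arrays of their set on 6 of 6 common-seed arrays. The log2 fold change was 0.60 (0.22 to 0.97, adjusted p = 0.0822 from limma), and the adjusted p was 0.0441 when probes well above background on all 11 arrays alone were tested.

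The other BCL2L11 probes were dim. A_23_P309991, at 111638189 to 111638248, was well above background on 8 arrays, and not on the 3 of set 2. A_23_P425954, at 111638203 to 111638262, was on 9 arrays, and not under miR-520f and miR-373. These probes overlap in position and share most of their target. On miR-372 sample 4 their levels were -2.63 and -3.55, above all other arrays, which lay between -5.41 and -4.27 and between -5.70 and -4.32. The other miR-372 array had -4.99 and -4.76, so that both were high on the array where 88.1% of all probes were well above background, and not on its partner. Their log2 fold changes were 0.30 (-0.49 to 1.09) and 0.00 (-0.67 to 0.67). A_23_P309996, at 111627828 to 111627887, was well above background on miR-372 sample 4 alone. A_23_P154426, at 111640036 to 111640095, was on none of the arrays and has only a bound there.

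BID, which links death receptors to the mitochondrion once it is cleaved, had 2 probes on chromosome 22. A_23_P154929, at 16598038 to 16598097 of hg18, had a log2 fold change of 0.13 (-0.12 to 0.39), and A_24_P187948, at 16598182 to 16598241, had 0.18 (-0.12 to 0.48). The former was above the mean of the mock arrays of its set on 6 of 6 common-seed arrays, by 0.09 to 0.18. The mock arrays of set 3 differed by 0.52 for this probe, and against mock sample 11 alone the direction turned, with -0.17 on miR-372 sample 10 and -0.09 under miR-520c. A_24_P187948 was highest under miR-520c, at 3.86 against 3.56 on mock sample 11. This was 0.51 above the mean of the mock arrays of set 3. PMAIP1, a BH3-only gene best known for acting on MCL1, had 1 probe on chromosome 18, from 55721258 to 55721317. Its level was 0.00, 0.07, 0.73 and 1.79 on mock samples 1, 8, 9 and 11, so that the mock arrays of set 3 differed by 1.06 on the log2 scale. The common-seed arrays lay between -0.13 and 0.98, and the log2 fold change was -0.16 (-0.76 to 0.45).

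BBC3, a BH3-only gene induced by cellular stress, had 3 probes on chromosome 19 of hg18. A_23_P382775, at 52416014 to 52416073, had a log2 fold change of 0.27 (-0.21 to 0.75), A_24_P305312, at 52416927 to 52416986, had -0.09 (-0.39 to 0.21), and A_23_P90189, at 52423274 to 52423333, had 0.31 (-0.40 to 1.02). Under miR-520c the first and last were above the mock arrays of their set by 0.83 and 1.49, while miR-372 on the same slide was at -0.03 and 0.60. For A_23_P90189 the mean difference of the common-seed arrays from mock was -0.31 in set 1, -0.22 in set 2 and 1.04 in set 3. None passed the test.

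**Figure D4:**
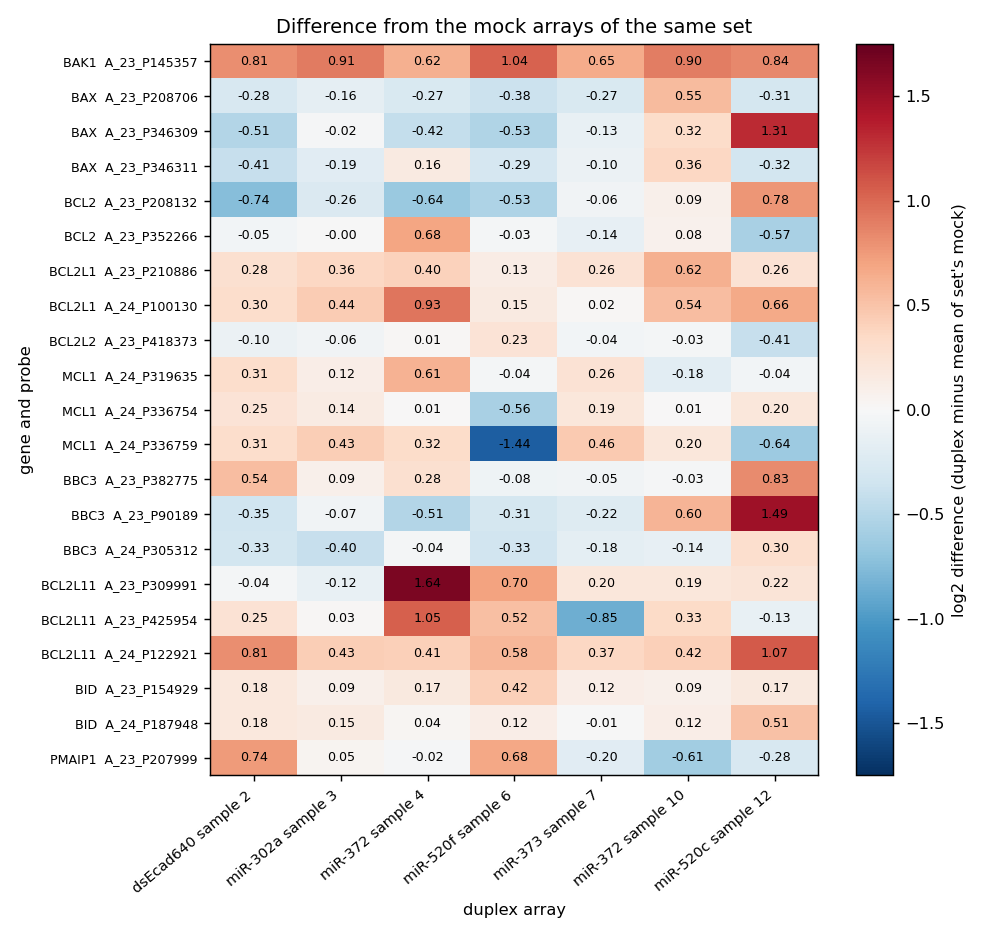
Log2 difference of each duplex array from the mean of the mock arrays of its set, for the 21 tested member probes (rows) and the 7 duplex arrays (columns); red is higher and blue lower than mock, and no value is a test. BAK1 is higher in every column, from 0.62 to 1.04, and the lowest value is that of MCL1 probe A_24_P336759 under miR-520f, at -1.44.

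Across all members, 14 of the 21 probes had a log2 fold change above 0 under the common-seed duplexes and 7 below 0. The median was 0.13, and it was 0.03 over all tested probes. Of the 21 probes, 6 were above the mean of the mock arrays of their set on 6 of 6 common-seed arrays, where 16.5% of all probes were, and none was below it on all of them, where 11.6% of all probes were. These were the probes of BAK1, both of BCL2L1, A_24_P122921 of BCL2L11, A_23_P154929 of BID and A_24_P336754 of MCL1. At an unadjusted p under 0.05 there were 4 member probes, those of BAK1 and BCL2L1 and A_24_P122921 of BCL2L11, and 5720 of all probes, or 21.1%. By duplex, with limma, the median of the 21 member probes lay between -0.04 (miR-373) and 0.22 (miR-520c) and that of all probes between -0.10 (dsEcad640 and miR-520f) and 0.11 (miR-372). Neither the guardians nor the BH3-only genes had a probe called in either direction.

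In a joint limma fit of all 11 arrays, with a term per duplex and the set as a block, no member probe passed. Neither did any of the other probes (0% called). The 2 residual degrees of freedom came from mock samples 9 and 11 and from the miR-372 pair. An estimate could draw on arrays of other sets and differ from the difference within its own set. Under dsEcad640 the fit gave -0.45 for A_23_P309991 of BCL2L11, against -0.04 within the set. For BAK1 these values were 0.89 and 0.81. Before adjustment, 7.81% of all probes had a p under 0.05 for dsEcad640, 3.92% for miR-302a, 9.54% for miR-372, 3.58% for miR-373, 17% for miR-520c and 7.54% for miR-520f. Of the 126 pairs of a member probe and a duplex, 14 did. BAK1 was among them under dsEcad640, miR-302a, miR-372 and miR-520f, both BCL2L1 probes under miR-372, A_24_P100130 of BCL2L1 also under miR-520c, and A_24_P122921 of BCL2L11 under dsEcad640 and miR-520c. Under miR-520c A_23_P346309 of BAX and 2 probes of BBC3 were among them, and under miR-520f A_24_P336754 and A_24_P336759 of MCL1, which lay below mock. miR-520c is 1 array, and A_23_P346309 of BAX and A_23_P90189 of BBC3 also differed between slides, as described next. Without miR-372 sample 10, A_23_P309991 of BCL2L11 passed under miR-372 with a log2 fold change of 1.64 (adjusted p = 0.0139 from limma), which then rests on sample 4 alone.

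Of the 21 tested member probes, 10 had levels in set 3 that did not overlap those of sets 1 and 2, as 33.9% of all probes did. The 3 with the largest difference in mean level between set 3 and the other sets were probes of BAX, BCL2 and BBC3. A_23_P346309 of BAX lay between 3.47 and 4.12 on the 7 arrays of sets 1 and 2, and had 0.27, 0.50, 0.71 and 1.69 on mock samples 9 and 11, miR-372 and miR-520c in set 3. A_23_P208132 of BCL2 lay between 1.98 and 3.22 in sets 1 and 2, and had -0.81, -0.80, -0.71 and -0.02 on the same arrays of set 3. A_23_P90189 of BBC3 lay between 8.31 and 8.84, and had 5.98, 6.54, 6.86 and 7.75. The mean signal was thus 8.26-fold, 9.08-fold and 3.37-fold lower in set 3, and the order of the arrays of set 3 was the same for each of these probes. The share of all probes with this order was not counted, and for BCL2 the mock arrays of set 3 differed by only 0.01.

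A probe for KLK3, the prostate-specific antigen that PC-3 cells are known to lack, had this order too. The other KLK3 probes, A_23_P334538 and A_24_P344510, were well above background on 4 and 1 of the 11 arrays and were not tested. The level of the KLK3 probe A_24_P108401 was 6.53 to 7.14 in sets 1 and 2. It was 3.09, 3.95, 4.48 and 5.35 on mock samples 9 and 11, miR-372 and miR-520c. The other BAX and BCL2 probes did not fall in this way: A_23_P346311 of BAX differed by -0.13 between set 3 and the other sets, A_23_P208706 by 0.98 and A_23_P352266 of BCL2 by -0.04. Of 26919 probes with a value on every array, 0.773% were lower by 3 or more on the log2 scale in set 3 and 0.0149% were higher by as much. A_23_P90189 of BBC3 did not reach 3, and 5.73% of these probes were lower and 0.431% higher by 1.5 or more. The arrays of set 3 did not overlap the others for either BCL2L1 probe, which differed by -0.78 and -1.19 between set 3 and the other sets. The slide and the RNA mixes of a set cannot be told apart, and comparisons within a set leave the difference between slides out of the fold changes, but not the differences between arrays of set 3. The difference between the common-seed effects in sets 3 and 1 passed for no probe (0% called, and 632 or 2.33% at an unadjusted p under 0.05, among them A_23_P90189 of BBC3 with 1.35).

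**Figure D5:**
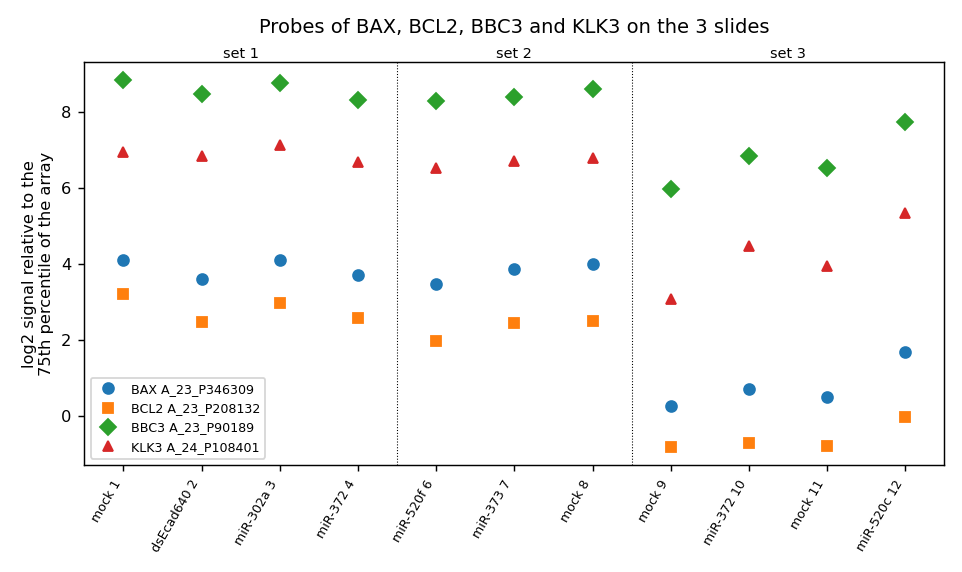
Level of the probes A_23_P346309 of BAX, A_23_P208132 of BCL2, A_23_P90189 of BBC3 and A_24_P108401 of KLK3 on the 11 arrays, as log2 signal over the array's 75th percentile, with dotted lines between the sets. Each is lower on all 4 arrays of set 3 than on the arrays of sets 1 and 2, and within set 3 each is highest under miR-520c and lowest on mock sample 9.

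Around the members, 5 lists of other genes of the pathway held 102 probes for 64 genes, and 86 probes for 56 genes were tested. Of these, 2 were higher and 4 lower under the common-seed duplexes, beside 2.14% and 2.05% of all probes, with a median log2 fold change of 0.03, as over all probes. Among 19 probes for other genes of the BCL2 family, 2 rose and 2 fell. BCL2A1, a guardian induced by NF-kappaB, fell by 0.74 on the log2 scale on 1 probe (adjusted p = 0.00667 from limma) and had -0.16 on the other (adjusted p = 0.425). BNIP3L, a mitophagy receptor, fell by 0.93 on 1 probe (adjusted p = 0.0239) and had -0.58 on the other (adjusted p = 0.0514). BOK, a relative of BAX and BAK1, rose by 0.47 on 1 probe (adjusted p = 0.0250) and had 0.03 on the other (adjusted p = 0.975), and the tested probe of BCL2L12 rose by 0.41 (adjusted p = 0.0430). Among 15 probes for death receptor genes, 2 fell, TNFRSF10B, a receptor for TRAIL, by 0.79 (adjusted p = 0.00949) and TNFRSF21, another receptor with a death domain, by 0.75 (adjusted p = 0.0273). Their other probes did not pass, with -0.27 (adjusted p = 0.269) for TNFRSF10B and -0.88 (adjusted p = 0.133) for TNFRSF21. None of the 31 probes for caspases and the apoptosome, the 6 for inhibitors of apoptosis or the 15 for upstream regulators passed.

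These 6 calls also depended on single arrays. Without mock sample 1 all 6 were lost, with adjusted p-values of 0.0518 for BCL2A1, 0.0879 for TNFRSF10B, 0.151 for BOK, 0.162 for BNIP3L, 0.167 for TNFRSF21 and 0.201 for BCL2L12. BCL2A1 and TNFRSF10B passed without any other single array. BNIP3L was also lost without miR-373 sample 7 or mock sample 8 (0.0597), mock sample 9 (0.0743) and mock sample 11 (0.0746). BOK and TNFRSF21 were lost without each of miR-302a (0.0649 and 0.0545), miR-373 or mock sample 8 (0.0605 and 0.0726), mock sample 9 (0.0681 and 0.0788), miR-372 sample 10 (0.0708 and 0.0518) and mock sample 11 (0.0717 and 0.0765). BCL2L12 was lost without any array other than miR-372 sample 4, at 0.0705 to 0.201. The signs held in all 20 alternatives.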

How the data were processed

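RNA of PC-3 cells taken 24 h after transfection was measured on 11 one-colour arrays, 150 ng of a mix of 4 transfections each. The deposited files hold the signal intensity of each spot, which the authors extracted with Agilent Feature Extraction 10.5.1.1 (background-subtracted processed signal), and a table of log2 values that the authors normalized, whose exact scaling is not given in the sources used here. Here outlier spots were dropped, log2 processed signals were centred on the 75th percentile of each array, and replicate spots of a probe were averaged. Probes well above background on at least 6 of 11 arrays (27118 of 41000) were fitted with limma 3.58.1 in R 4.3.3, with the set as a fixed block, and p-values were adjusted by Benjamini-Hochberg over all probes fitted. Probe positions are those of the files (hg18). Single duplexes were tested in a joint fit of all 11 arrays, with a term per duplex and the set as a block. Differences of single arrays from mock, without a test, were taken from the mean of the mock arrays of their set. Steps were tested on simulated data, and figures were drawn with matplotlib. The number of arrays limits the precision, since arrays have no read depth.

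The members and gene lists were chosen with earlier results of these data known. All 10 members were named with every probe, pathway genes by name only where called under the common-seed duplexes (up to 12, by smallest adjusted p), and the 3 probes most like the member of smallest p. Alternatives were the normalization, scaling, background correction, filter, block, gene means, the authors' table, leaving out arrays and a mean per duplex. Fits of sets 1 and 2 alone and of set 3 alone were added after the data were seen. The members' proteins and 3′ untranslated regions, and the sequence of dsEcad640, were not analysed here. Some marker genes of the cell line are not reported here.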

Additional observations from a re-analysis of the deposited data

Results flagged for a closer look

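Over the 21 member probes, 42 groups of arrays were searched for a value that stood apart from its group by a gap of an unusual share of the group's range, and 6 were found, where chance gives about 5% of groups of like arrays. The search pooled the 3 sets, whose levels differ for many probes, so that this share is only a rough guide here. On mock sample 11, A_23_P154929 of BID was -0.03 against -0.56 on the nearest mock array, a gap of 0.855 of the range, and BCL2L2 (A_23_P418373) was 0.90 against 1.14, a gap of 0.886. On mock sample 9, A_23_P208706 of BAX was 1.71 against 0.62, a gap of 0.848. Under miR-520c, BCL2L2 was 0.61 against 0.99 on the nearest common-seed array, a gap of 0.687, and A_24_P336759 of MCL1 was 0.10 against 0.94, a gap of 0.760. On miR-372 sample 4, A_23_P309991 of BCL2L11 was -2.63 against -4.31, a gap of 0.652. Of the 6, 5 are on arrays of set 3, and the sixth is on the array with 88.1% of all probes well above background. The cause was not tested.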

How the results depend on the processing

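The direction of BAK1 held in all 20 alternatives, and so did those of both BCL2L1 probes, A_24_P122921 of BCL2L11, BCL2L2, both BID probes, A_23_P382775 of BBC3 and A_24_P336754 of MCL1. The number of probes called under the common-seed duplexes, 1136, changed most with the arrays: 24 (10 higher, 14 lower) without mock sample 1 and 1919 (795 higher, 1124 lower) without miR-372 sample 4, and 0 in sets 1 and 2 alone, in set 3 alone or with a mean per duplex. It was 388 without the block, 248 with median scaling (56 higher, 192 lower, against 580 and 556), 215 without a filter, 2093 with probes well above background on all arrays and 2012 with the authors' table. The share of higher calls thus fell with median scaling, which moved the median of all probes from 0.03 to -0.04. Member probes called were 0 with median scaling, without a filter, with a mean per duplex and in either part of the sets, 2 with the filter on all arrays (BAK1 and A_24_P122921 of BCL2L11) and 2 with the authors' table (BAK1 and A_24_P100130 of BCL2L1), and 0 to 1 without single arrays. Pairs of a member probe and a duplex called were 0 to 1 without single arrays. For miR-520f against the common-seed duplexes, the 16 probes called became 169 with quantile normalization, 118 with median scaling, 29 with normexp, 0 without a filter, 63 with the filter on all arrays and 49 with the authors' table, and 0 to 335 without single arrays, with no member among them in the latter. The effect in set 3 against set 1 had 6 probes called with median scaling, none of them a member.

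Probes without a call changed sign as follows, and the cause was not tested. A_23_P208132 of BCL2 had 0.59 without the block, 0.018 with normexp, 0.44 in set 3 alone and -0.20 to 0.27 without single arrays. A_24_P305312 of BBC3 had 0.038 without the block and 0.077 in set 3 alone, and A_23_P90189 of BBC3 had -0.27 in sets 1 and 2 alone. A_23_P425954 of BCL2L11 had -0.17 with quantile normalization, -0.070 with median scaling, -0.034 with normexp, -0.075 with a mean per duplex, -0.076 in sets 1 and 2 alone and -0.22 to 0.25 without single arrays. A_23_P208706, A_23_P346311 and A_23_P346309 of BAX had -0.31 to 0.067, -0.22 to 0.064 and -0.045 to 0.50 without single arrays, and the first and second had 0.12 and 0.019 in set 3 alone and the third -0.24 in sets 1 and 2 alone. A_23_P352266 of BCL2 had -0.21 to 0.073 without single arrays and 0.070 in sets 1 and 2 alone, and PMAIP1 had -0.36 to 0.078 and 0.074. In set 3 alone A_24_P319635 and A_24_P336759 of MCL1 had -0.11 and -0.22. Arrays could not be paired by sample number, since no group shares a number with another, and were matched only by their set. The lowest signals lie near background, which limits the BCL2L11 probes.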
